A study of Mus musculus with 12 samples.

Results

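The keratins Krt1, Krt2, Krt4, Krt10, Krt13, Krt76 and Krt78 were followed in forestomachs taken from adult C57BL/6J wild-type mice. In rodents this chamber of the stomach carries a stratified squamous lining. Members were chosen by name: every array probe that the scanner files name after 1 of the 7 genes was taken, 11 of 41174 probes, which carry 28146 gene names in all. A probe was kept if the scanner software flagged its forestomach signal as well above background on 3 or more of the 4 arrays of either group with scanner files. This kept 10 of the 11 keratin probes and 30450 probes in all. The 4-week mice had 20% alcohol in supersaccharin, a sweet drink, and the 40-week mice had 15% alcohol, where the labels do not mention the sweetener. The control mice had the sweet drink with 0% alcohol, and their sample titles give no number of weeks. Each group had 4 samples. No label says whether these came from separate animals, and every p-value here therefore reflects sample-to-sample spread that may be technical. Every array set whole-forestomach RNA labelled with Cy5 against a commercial mouse reference RNA pool labelled with Cy3, without dye swap. The comparisons ask whether drinking alcohol changes the expression of these keratins.

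Keratins form the intermediate filaments of epithelial cells, always from a type I and a type II chain together. Basal cells of stratified epithelium use Krt5 with Krt14. Once a cell leaves the basal layer it turns to suprabasal pairs, Krt1 with Krt10 in cornifying epithelium such as the epidermis and Krt4 with Krt13 in the lining of mouth and oesophagus. Krt10 and Krt13 are the type I chains here and the other members are type II chains. Krt2 replaces Krt1 in the upper epidermis, Krt76 is known from the palate, and Krt78 is a type II chain of stratified epithelia. The genes lie in the 2 keratin clusters of the mouse. On chromosome 11, Krt10 and Krt13 belong to 27 keratin genes named in the reference gene table. On chromosome 15, among 26 keratin genes, Krt2 neighbours Krt1, Krt76 neighbours Krt4, and Krt78 lies between Krt79 and Krt8.

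Each probe is 60 bases long, and what it binds decides what a value means. The probes below are those of Krt10 and of the mucosal pair, Krt4 and Krt13, whose values the comparisons turn on, printed 5′ to 3′ as given in the scanner files. The capitals in the first Krt10 probe mark the stop codon, so it reads the very end of the coding sequence, and its position in the genome is not given in the files.
Krt4 A_51_P319180: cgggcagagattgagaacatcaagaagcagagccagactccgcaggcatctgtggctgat
Krt10 A_51_P111285: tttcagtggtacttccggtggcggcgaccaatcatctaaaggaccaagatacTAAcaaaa
Krt10 A_52_P76277: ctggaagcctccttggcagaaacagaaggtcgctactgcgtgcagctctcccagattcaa
Krt13 A_51_P307964: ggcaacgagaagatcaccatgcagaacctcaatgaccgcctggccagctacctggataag
Krt13 A_52_P430886: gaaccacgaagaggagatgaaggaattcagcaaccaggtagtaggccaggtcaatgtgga
On mouse build mm9 (NCBI37), and on the minus strand, the Krt4 probe lies at chr15:101750158-101750736 and the second Krt10 probe at chr11:99247994-99248053. The Krt13 probes lie at chr11:99982471-99982530 and chr11:99980710-99980948. The Krt4 probe and the second of the Krt13 probes span 579 and 239 bases of genome with 60 bases of probe, so they cross an intron. The Krt1 probe A_51_P416669 lies at chr15:101676107-101676166, that of Krt76 (A_51_P257175) at chr15:101715054-101715113 and that of Krt78 (A_52_P311168) at chr15:101776589-101776648, all on the minus strand. Over the 55 pairs among the 11 probes the longest run of bases shared was 9, with a median of 5.

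Krt1 and Krt2 need care. A further probe that the files name after Krt1, A_51_P207237, lies at chr15:101678904-101678963 on the plus strand, opposite to all the other mapped keratin probes, and was designed on a cDNA. Which transcript it reads is not given in the files, and it is reported by itself. Of the 2 Krt2 probes, A_52_P462608 was not well above background in Cy5 on any of the 8 arrays with scanner files, and no fold change is given for it. The other, A_51_P343474 at chr15:101641326-101641385, was flagged as well above background in Cy5 on all 8 arrays but was dim. Its Cy5 signal above local background was 50.8, 12.8, 22.6 and 19.5 on the 4-week arrays, in the order of replicates 1 to 4, and 33.5, 40.5, 58.5 and 33.1 on the control arrays. In Cy3 it was well above background on 1 of 4 4-week arrays and 2 of 4 control arrays, so its ratio rests on a reference signal near background.

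The arrays differ in ways that bear on all of these values. Scanner files were used for the 8 arrays of the 4-week and control groups, and the 40-week arrays were read from the deposited table of log2 ratios. All control arrays were on 1 slide and all 4-week arrays on another, so slide and group cannot be told apart. Median Cy5 signal was 40.1 to 104 on 4-week arrays and 107 to 142 on control arrays, and no spot was saturated. Basal and suprabasal squamous markers other than the members were above background in both groups. Of the 9 hair markers, 5 were not well above background on any 4-week array and 2 on any control array. Glandular stomach markers summed to 1719370 units of Cy5 in 4-week replicate 2 and to 1484820 in control replicate 4, against 595 to 21744 on the other 6 arrays, and pancreas markers to 1898140 in control replicate 3, against 486 to 6335 on the other 7 arrays. Xist, the RNA of the inactive X chromosome, had deposited log2 ratios of 0.11 and 0.63 in 40-week replicates 4 and 3, against -2.25 to -0.82 in the other 10 samples. Sex is not stated in the labels.

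After 4 weeks of 20% alcohol, Krt1, Krt4 and Krt10 fell in the ratio of forestomach to reference RNA, with log2 changes of -1.79 to -1.501, and Krt13 and Krt78 were lower without passing the test. The forestomach signal itself was not shown to be lower: in Cy5 alone none of the 10 keratin probes was called. In Cy3, which carries the reference RNA, 7 of them rose, at Krt1, Krt4, Krt10, Krt13 and Krt78. In whole tissue, fewer cells of a type and less RNA per cell cannot be told apart.

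In the ratio, 3 of 10 kept probes were called lower by limma at an adjusted p under 0.05 and 0 were called higher, against 0.575% lower, 0.181% higher and 0.755% in either direction of the 30450 kept probes. For 7 of 10 probes every 4-week ratio lay below every control ratio, against 5.86% of all kept probes in that direction and 11.7% in either. The median change was -1.31 for the keratin probes and -0.01 for all kept probes.

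Krt1, the type II chain of the cornifying pair, had log2 ratios of 5.96, 4.81, 6.34 and 5.80 on the 4-week arrays and 7.17, 7.49, 7.69 and 7.20 on the control arrays. Every 4-week value lay below every control value, 4-week replicate 2 lowest. The change was -1.66 ± 0.30 (log2 ± SE, n = 4 each; limma adjusted p = 0.0493).
Its partner Krt10, read by the probe with the stop codon, had 3.90, 2.96, 4.19 and 3.30 on the 4-week arrays and 5.61, 5.15, 5.47 and 5.29 on the control arrays. These did not overlap either, with a change of -1.79 ± 0.26 (adjusted p = 0.0396). The other Krt10 probe changed by -1.39 ± 0.34 and was not called (adjusted p = 0.0983), although its groups did not overlap. Krt2, the late epidermal chain, had 0.92, 0.24, 0.46 and 0.46 on the 4-week arrays and 0.39, 0.39, 0.77 and 0.28 on the control arrays, and these overlapped (0.06 ± 0.17; adjusted p = 0.892).

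Of the mucosal pair, the type II chain Krt4 had log2 ratios of 5.20, 4.45, 5.19 and 4.86 on the 4-week arrays and 6.53, 6.32, 6.77 and 6.09 on the control arrays. The groups were apart and Krt4 fell by 1.501 ± 0.21 (adjusted p = 0.0396). Its type I partner Krt13 had 4.81, 3.48, 5.41 and 4.80 on the 4-week arrays and 6.35, 6.07, 6.68 and 6.497 on the control arrays with the brighter probe. Both Krt13 probes separated the groups without passing the test, at -1.77 ± 0.36 (adjusted p = 0.0661) and -1.22 ± 0.26 (adjusted p = 0.0685). Krt78 had 3.68, 3.06, 4.02 and 3.49 on the 4-week arrays and 4.11, 4.64, 4.83 and 4.30 on the control arrays, which did not overlap (-0.91 ± 0.23; adjusted p = 0.103). Krt76 did not separate the groups, with 4.68, 3.78, 4.79 and 4.28 on the 4-week arrays and 4.19, 5.07, 4.86 and 3.85 on the control arrays (-0.11 ± 0.31; adjusted p = 0.889). The plus-strand probe at Krt1 had a change of -0.11 ± 0.13 (adjusted p = 0.697).

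The 3 calls were fragile. With the arrays centred on their medians in place of loess, 0 were called, with Krt1 at -1.96, Krt4 at -1.63 and Krt10 at -2.17. With the arrays scaled to the same spread 0 were called as well, with Krt1 at -0.96, Krt4 at -0.91 and Krt10 at -1.35. In both of these fits 0 of all kept probes were called. With any 1 of the 8 arrays left out, none of the keratin probes was called. Over all kept probes 0 to 22 were called in those fits, so the loss of calls was not particular to the keratins. The change ran from -1.86 to -1.35 for Krt1, from -1.61 to -1.34 for Krt4 and from -1.996 to -1.58 for Krt10. Next, 4-week replicate 2, control replicate 3 and control replicate 4, the arrays with transcripts of other organs, were left out together. Then 3 were called, against 1.29% of all kept probes, with Krt1 at -1.29, Krt4 at -1.34 and Krt10 at -1.58. On 4-week replicate 2 all 10 keratin probes had the lowest ratio of their group, and on control replicate 3 it was the highest for 8 of 10. The part of those transcripts in the values of single arrays was not tested.

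The channels show where the ratios moved. Krt1 gave Cy5 signals above local background of 291564, 369510, 327246 and 162778 on the 4-week arrays and 394755, 475840, 480688 and 428864 on the control arrays. It ranked between 3 and 19 among the 30450 kept probes on each array. In Cy3 it gave 8651, 16422, 7516 and 9950 on the 4-week arrays and 5432, 3284, 2485 and 3949 on the control arrays. Forestomach signal was thus dimmer at 4 weeks before normalization, as was the median of all probes, whereas the reference signal of Krt1 was brighter on every 4-week array than on any control array.

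Krt4 gave Cy5 signals of 89013, 33995, 73980 and 22920 on the 4-week arrays and 30781, 48519, 103750 and 44122 on the control arrays, with wide overlap. In Cy3 it gave 4849, 2547, 4106 and 2992 on the 4-week arrays and 835, 905, 1245 and 1118 on the control arrays, with none. Krt13 (A_52_P430886) had Cy3 signals of 5964, 10038, 3579 and 3836 on the 4-week arrays and 1592, 1848, 1913 and 1779 on the control arrays. The Cy3 signals of Krt13 did not overlap, while its Cy5 signals did, with 28576 to 84437 on the 4-week arrays and 52744 to 161039 on the control arrays. Krt10 (A_51_P111285) had the brightest Cy3 signals of the group, 30053, 44191, 25480 and 60240 on the 4-week arrays and 15722, 13621, 9570 and 13581 on the control arrays. Here the raw Cy5 signal was also lower on every 4-week array, 186992 to 289150 there and 421844 to 450915 on the control arrays.

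Krt78 had Cy3 signals of 15962, 16493, 14657 and 17516 on the 4-week arrays and 10447, 7327, 5434 and 6346 on the control arrays, which did not overlap, and Cy5 signals of 56323 to 125451 on the 4-week arrays and 82082 to 142026 on the control arrays. Krt76, the dimmest measured member after Krt2, had Cy3 signals of only 175, 171, 419.9 and 154 on the 4-week arrays and 171, 244, 115 and 102 on the control arrays. Those overlapped, as did its Cy5 signals of 973 to 5400 on the 4-week arrays and 1246 to 5631 on the control arrays. As a share of Cy5, the raw Cy3 signal of Krt1 was 2.3 to 6.11% at 4 weeks and 0.517 to 1.38% in controls. For Krt4 it was 5.45 to 13.1% at 4 weeks and 1.2 to 2.71% in controls, and for Krt10 9.82 to 32.2% at 4 weeks and 2.12 to 3.73% in controls.

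**Figure D1:**
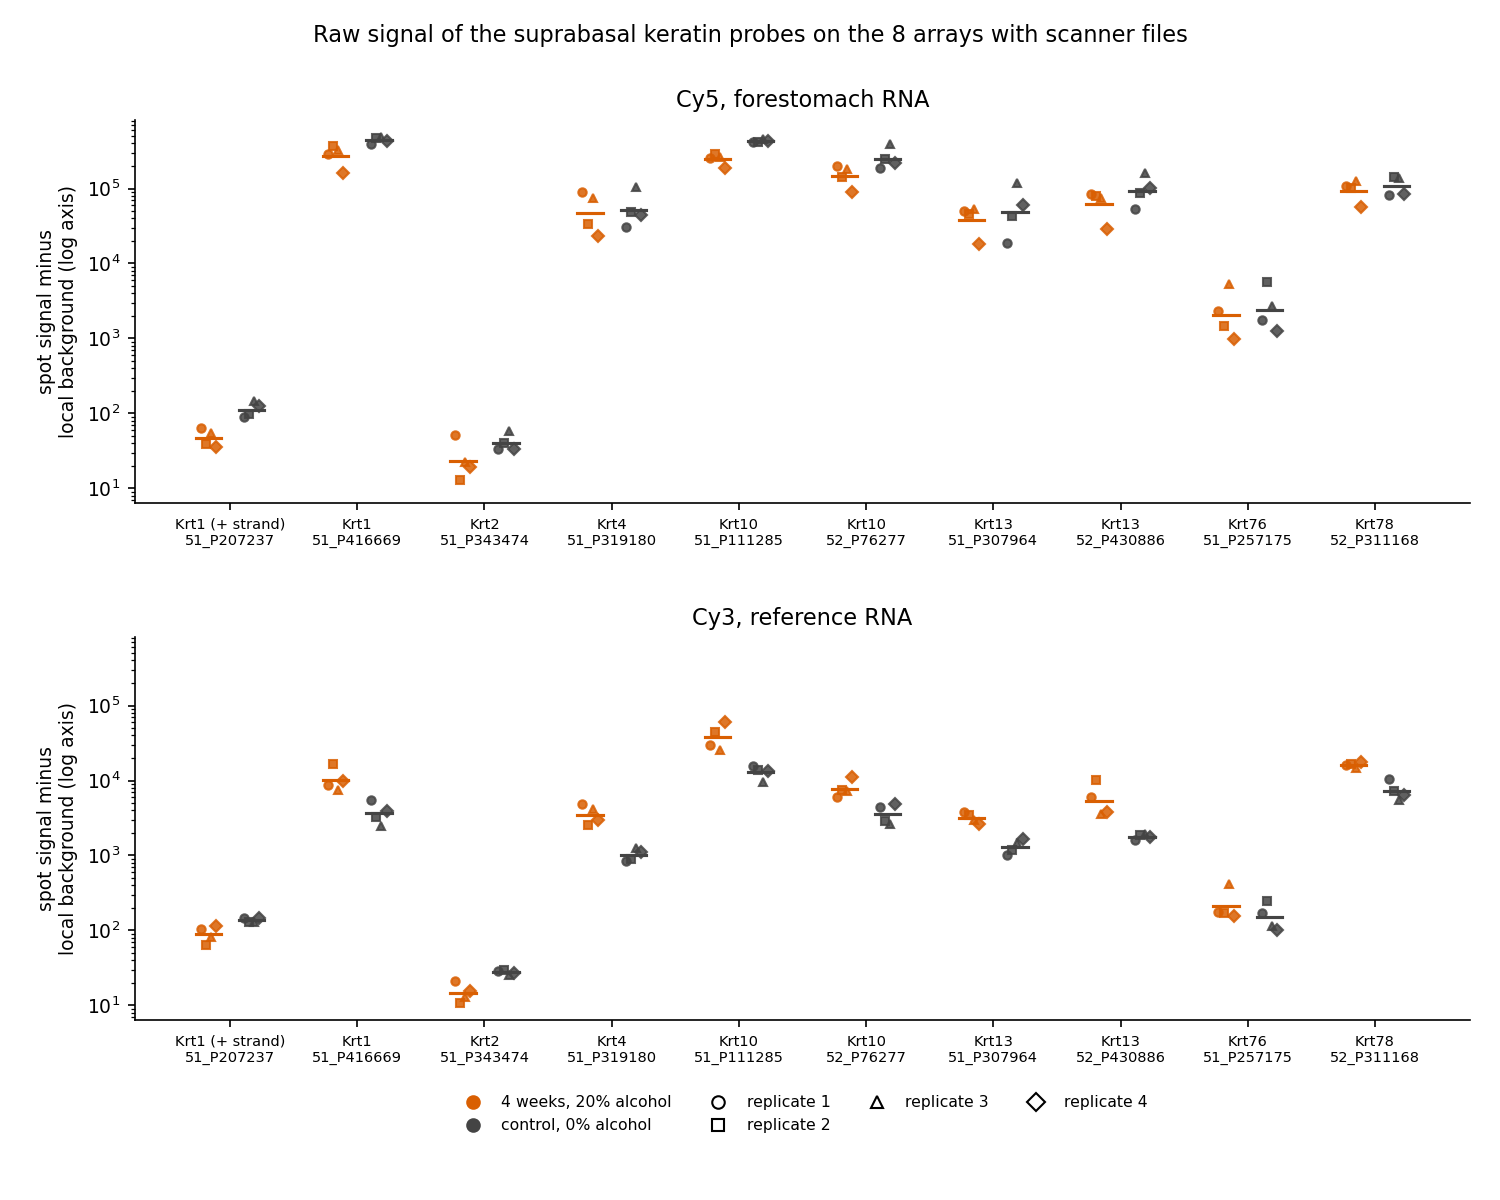
Raw Cy5 and Cy3 signal minus local background (log axis) of the 10 kept keratin probes on the 4 4-week and 4 control arrays, a symbol per replicate, a bar at the mean of the log values. In Cy3 the 4-week arrays lie above the control arrays for Krt1, Krt4, Krt10, Krt13 and Krt78, as at Krt4 with 2547 to 4849 at 4 weeks and 835 to 1245 in controls.

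After quantile normalization of each channel by itself, which fixes the distribution of signals and so compares ranks within an array, limma called 0 of 10 keratin probes in Cy5 (1 at an unadjusted p under 0.05), and 0 of 10 had groups that did not overlap (5.93% of kept probes higher, 4.69% lower). Over all kept probes 0.187% were called in either direction, 0.154% higher and 0.0328% lower. Krt4 had 0.75 ± 0.42 (adjusted p = 0.422), Krt78 0.64 ± 0.22 (adjusted p = 0.218) and Krt76 0.49 ± 0.53 (adjusted p = 0.682), all on the side of more signal at 4 weeks. With 1 array left out, Krt4 ranged from 0.46 (without 4-week replicate 1) to 1.14 (without 4-week replicate 2) and Krt76 from 0.06 (without 4-week replicate 3) to 0.85 (without 4-week replicate 2). Krt13 had 0.24 ± 0.22 and 0.51 ± 0.36 with its 2 probes. The cornifying pair stood close to 0, Krt1 at 0.03 ± 0.11 and Krt10 at -0.10 ± 0.13 and 0.04 ± 0.23. For Krt1 and the brighter Krt10 probe, near the top of each array, this scaling leaves little room to move. With each array scaled to its median in its place, Krt1 had -0.06 and Krt10 -0.19, again uncalled. A p that misses the threshold does not show that the keratins did not differ in Cy5.

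In Cy3 alone 7 of 10 probes rose and 0 fell, against 4.87% of kept probes called higher, 2.25% called lower and 7.12% in either direction. The same 7 of 10 did not overlap, against 9.15% higher and 10.1% lower over all kept probes. Krt4 changed by 2.01 ± 0.23 (limma adjusted p = 0.00172), Krt1 by 1.75 ± 0.23 (adjusted p = 0.00322) and Krt78 by 1.44 ± 0.15 (adjusted p = 0.0013). Krt10 rose by 1.80 and 1.40 and Krt13 by 1.84 and 1.51 with their 2 probes each. Krt76 at 0.59 ± 0.29 (adjusted p = 0.232) and Krt2 at -0.15 ± 0.06 (adjusted p = 0.163) were not called. The reference pool holds no alcohol-treated sample of this study, so these are differences in the reference channel between the 2 slides, which are also the 2 groups. With any 1 array left out, 7 probes were called in each case. Without the 3 arrays that held transcripts from other organs 5 were called, and Krt10 (A_51_P111285) was at 1.64 (adjusted p = 0.0985). Krt2 was called lower in Cy3 without background correction (-0.32, adjusted p = 0.0477) and with the scanner software's processed signals (-1.38, adjusted p = 2.60e-04), and Krt76 had 0.30 without 4-week replicate 3.

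**Figure D2:**
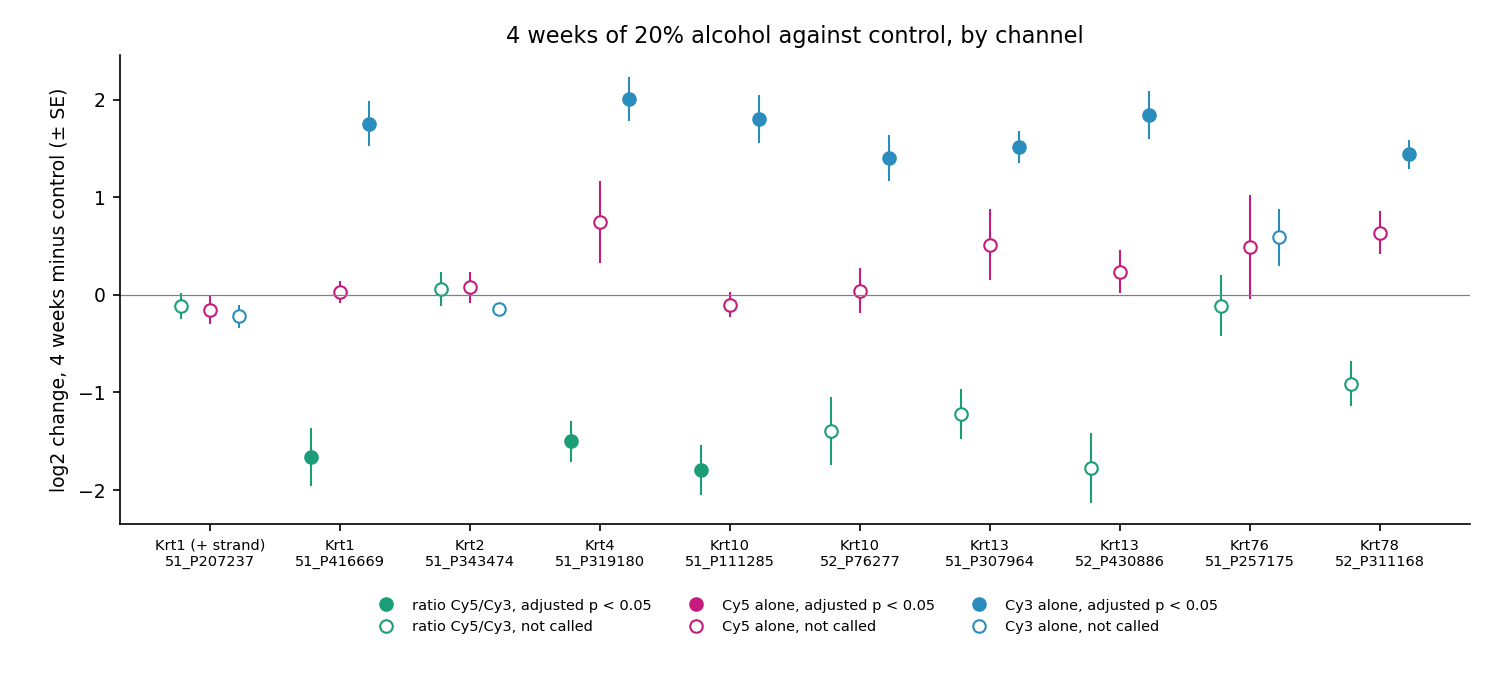
Log2 change, 4 weeks minus control, with its standard error, of the 10 kept keratin probes for the ratio and for each dye alone. Filled points have a limma adjusted p under 0.05, which 3 ratios, 0 Cy5 signals and 7 Cy3 signals reached.

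The keratins share this pattern with other probes far brighter in the forestomach than in the reference. Of the 155 kept probes with a mean control log2 ratio of 6 or more, 5 of them keratin probes, the ratio had a median change of -1.17, Cy5 one of -0.01 and Cy3 one of 0.93, and 63.9% were called higher in Cy3. In the range of 4 to 6, with 563 probes and 3 of the keratin probes, the medians were -0.66 (ratio), -0.01 (Cy5) and 0.48 (Cy3). Between 0 and 2, where the dim Krt2 and plus-strand Krt1 probes lie among 14356, they were -0.06, -0.03 and -0.02 in the same order. Krt1, Krt4, both Krt10 and both Krt13 probes lay below the ratio median of their range, as did Krt78, and Krt76 lay above it. These ranges were set on control values that also enter the change, and the part of sampling spread in high control values was not tested.

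**Figure D3:**
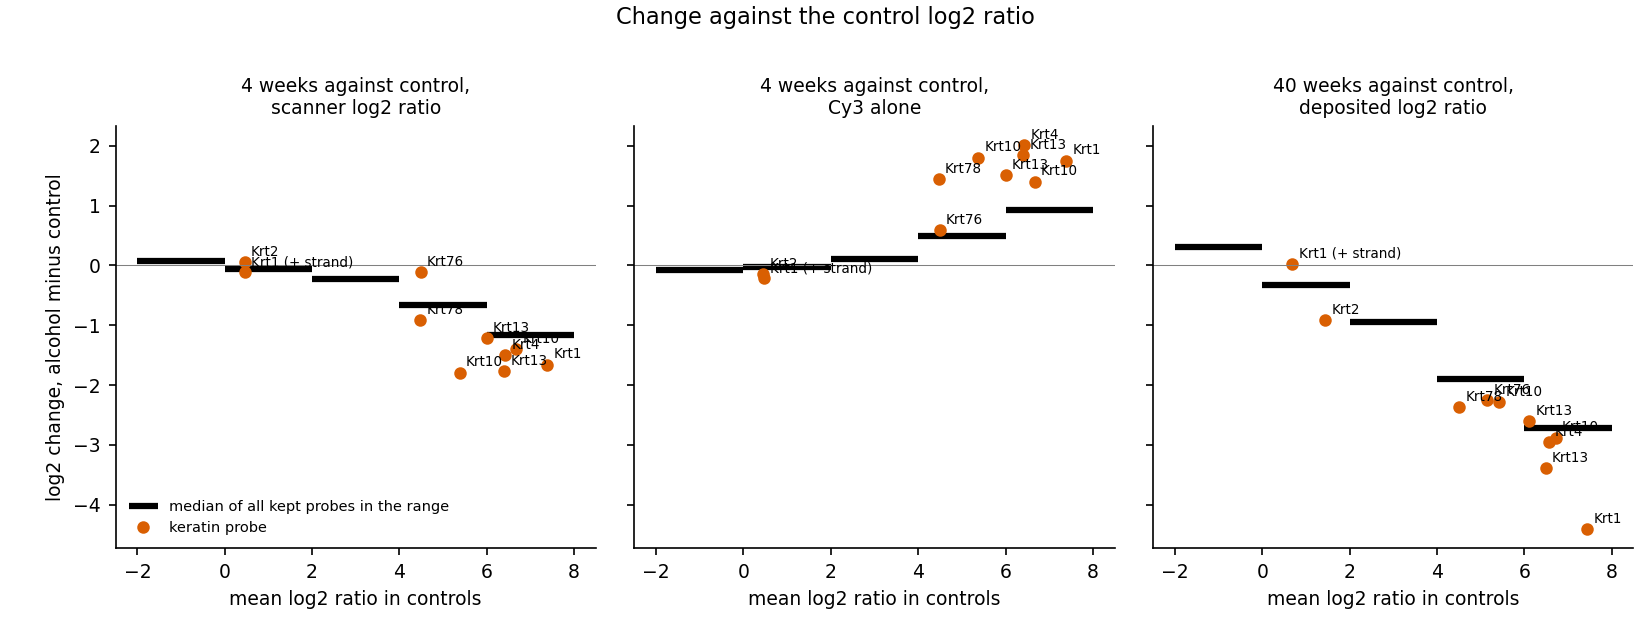
Log2 change, alcohol minus control, of the 10 keratin probes (points) against their mean log2 ratio in controls, with the median change of all kept probes in each range of that ratio (bars). In the 40-week panel the bar for a control ratio of 6 or more is at -2.72, and Krt1 lies below it at -4.41.

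Other keratins and the proteins that work with these filaments were listed and counted in the same fits. Of 18 further keratins 16 were measured, and in the ratio 2 fell, the type I keratin Krt23 by 1.69 ± 0.25 (adjusted p = 0.0396) and the basal chain Krt5 by 0.87 ± 0.16 (adjusted p = 0.0493). Krt14, the basal partner of Krt5, had -1.07 ± 0.25 (adjusted p = 0.0877). In Cy5 these basal chains had 0.35 and -0.14, and the list held 1 call, a rise of the type II keratin Krt80 by 1.78 ± 0.23 (adjusted p = 0.0339). In Cy3 6 of the 16 rose, with Krt23 at 1.72, Krt79 at 1.32 and Krt80 at 1.25. Krt5 and Krt14, which also rose there, had 1.16 and 0.88. The list had medians of -0.14 (ratio), 0.36 (Cy5) and 0.58 (Cy3).

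Of 20 partners of the filaments, which anchor them to desmosomes, bundle them or bind them into the cornified envelope, 4 fell in the ratio and 0 rose, with a median of -0.88. Among these were repetin (Rptn) of the cornified envelope at -1.51 ± 0.27, filaggrin (Flg), which bundles keratin filaments, at -1.42 ± 0.25, and envoplakin (Evpl), which ties filaments to the envelope, at -1.30 ± 0.22. In Cy5 none of the 20 was called (2 at an unadjusted p under 0.05; median 0.11), and in Cy3 13 rose (median 0.74), among them loricrin (Lor) at 1.94. Of 20 regulators of suprabasal differentiation 19 were measured and none was called in the ratio (4 at an unadjusted p under 0.05; median -0.34) or in Cy5 (2; median -0.07). In Cy3 1 rose, the receptor Notch1 at 0.33. The keratins thus moved in the same channel as most of their listed partners, as did probes with a high control ratio in general.

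After 40 weeks of 15% alcohol the deposited ratios of all 7 keratins were lower than in controls. Krt1 had the largest fall of them, 4.41 on the log2 scale, and Krt13 and Krt4 followed at 3.40 and 2.96. Krt10, Krt76 and Krt78 fell by 2.26 to 2.88, and the dim Krt2 probe by 0.91. The 40-week columns as a whole have a narrower spread than the others, with a standard deviation over probes of 1.02 to 1.08 at 40 weeks and of 1.48 to 1.73 in the 4-week and control columns. Ratios far from 0 were smaller in general there.

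The deposited values of the same probes at 4 weeks give the base for that comparison. Against control, 7 of 10 keratin probes were called lower at 4 weeks and 0 higher, where 3.04% of kept probes were called lower, 2.26% higher and 5.3% in either direction, and the 7 did not overlap (5.94% of kept probes were lower without overlap). This fit takes its spread from all 12 columns. With the 4-week and control columns alone, 0 of 10 were called, with adjusted p of 0.0561 for Krt4 and Krt10. At 40 weeks 9 of 10 were called lower and 0 higher, against 24.2% of kept probes called lower, 18.1% higher and 42.2% in either direction. Those 9 did not overlap with control, against 23.9% of kept probes lower and 41.7% in either direction. The median change was -2.49 over the keratin probes and -0.10 over all kept probes.

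Krt1 had deposited log2 ratios of 5.94, 4.76, 6.31 and 5.73 at 4 weeks, 2.74, 3.29, 2.98 and 3.13 at 40 weeks and 7.23, 7.54, 7.74 and 7.26 in controls. No group overlapped another. The change at 40 weeks against control was -4.41 ± 0.28 (limma adjusted p = 1.23e-06), and at 4 weeks -1.76 ± 0.28 (adjusted p = 0.00701).
Krt10 (A_51_P111285) had 3.85, 2.89, 4.13 and 3.16 at 4 weeks, 2.92, 3.27, 3.16 and 3.16 at 40 weeks and 5.65, 5.19, 5.50 and 5.33 in controls. For this probe the alcohol groups overlapped each other and both lay below the controls (-2.29 ± 0.24 at 40 weeks, adjusted p = 2.27e-05; -1.91 ± 0.24 at 4 weeks, adjusted p = 0.00478). The other Krt10 probe changed by -2.88 ± 0.32 at 40 weeks and -1.47 ± 0.32 at 4 weeks. Krt2 had 2.49, 1.34, 2.05 and 2.15 at 4 weeks, 0.86, 0.53, 0.39 and 0.33 at 40 weeks and 1.49, 1.21, 1.91 and 1.15 in controls. Its call at 40 weeks (-0.91 ± 0.24; adjusted p = 0.0106) ended without 40-week replicates 3 and 4, the samples set apart by Xist, at -0.75 (adjusted p = 0.115).

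Krt4 had 5.21, 4.50, 5.21 and 4.90 at 4 weeks, 3.29, 3.73, 3.50 and 3.89 at 40 weeks and 6.76, 6.43, 6.85 and 6.20 in controls, again without overlap between any groups (-2.96 ± 0.21 at 40 weeks, adjusted p = 1.78e-06; -1.60 ± 0.21 at 4 weeks, adjusted p = 0.00478). Krt13 (A_52_P430886) had 4.82, 3.48, 5.43 and 4.83 at 4 weeks, 2.79, 3.26, 2.99 and 3.32 at 40 weeks and 6.49, 6.14, 6.74 and 6.58 in controls. It was -3.40 ± 0.33 at 40 weeks (adjusted p = 1.31e-05) and -1.85 ± 0.33 at 4 weeks (adjusted p = 0.0114), and the other Krt13 probe had -2.60 ± 0.23 and -1.29 ± 0.23 in the same order. In the deposited columns as they stand, Krt4 and Krt13 thus kept their groups apart in all 3 pairings. With every column scaled to the same spread, the 40-week minus 4-week change was 0.53 for Krt4 and 0.13 for Krt13.

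Krt76 had 5.17, 4.26, 5.06 and 5.0 at 4 weeks, 2.81, 2.85, 2.78 and 3.13 at 40 weeks and 5.02, 5.43, 5.48 and 4.65 in controls. The 4-week and control values overlapped and the 40-week values lay below both (-2.26 ± 0.23 at 40 weeks, adjusted p = 1.73e-05; -0.27 ± 0.23 at 4 weeks, adjusted p = 0.503). Krt78 had 3.66, 3.04, 3.99 and 3.42 at 4 weeks, 1.94, 2.28, 2.16 and 2.17 at 40 weeks and 4.14, 4.68, 4.86 and 4.35 in controls, with no overlap (-2.37 ± 0.21 at 40 weeks, adjusted p = 6.41e-06; -0.98 ± 0.21 at 4 weeks, adjusted p = 0.0232). The plus-strand probe at Krt1 had 0.69, 0.40, 0.92 and 0.57 at 4 weeks, 1.01, 0.47, 0.56 and 0.85 at 40 weeks and 0.64, 0.43, 0.99 and 0.71 in controls, with a change of 0.03 ± 0.17 at 40 weeks (adjusted p = 0.902). In 6 of the 10 probes the groups were fully ordered with 40-week below 4-week below control values, an order found in 2.09% of kept probes. These were the probes of Krt1, Krt4, Krt13 (both) and Krt78 and the second Krt10 probe. The 2.09% covers kept probes at any control ratio, and the part of the narrower 40-week spread in this order was not tested.

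**Figure D4:**
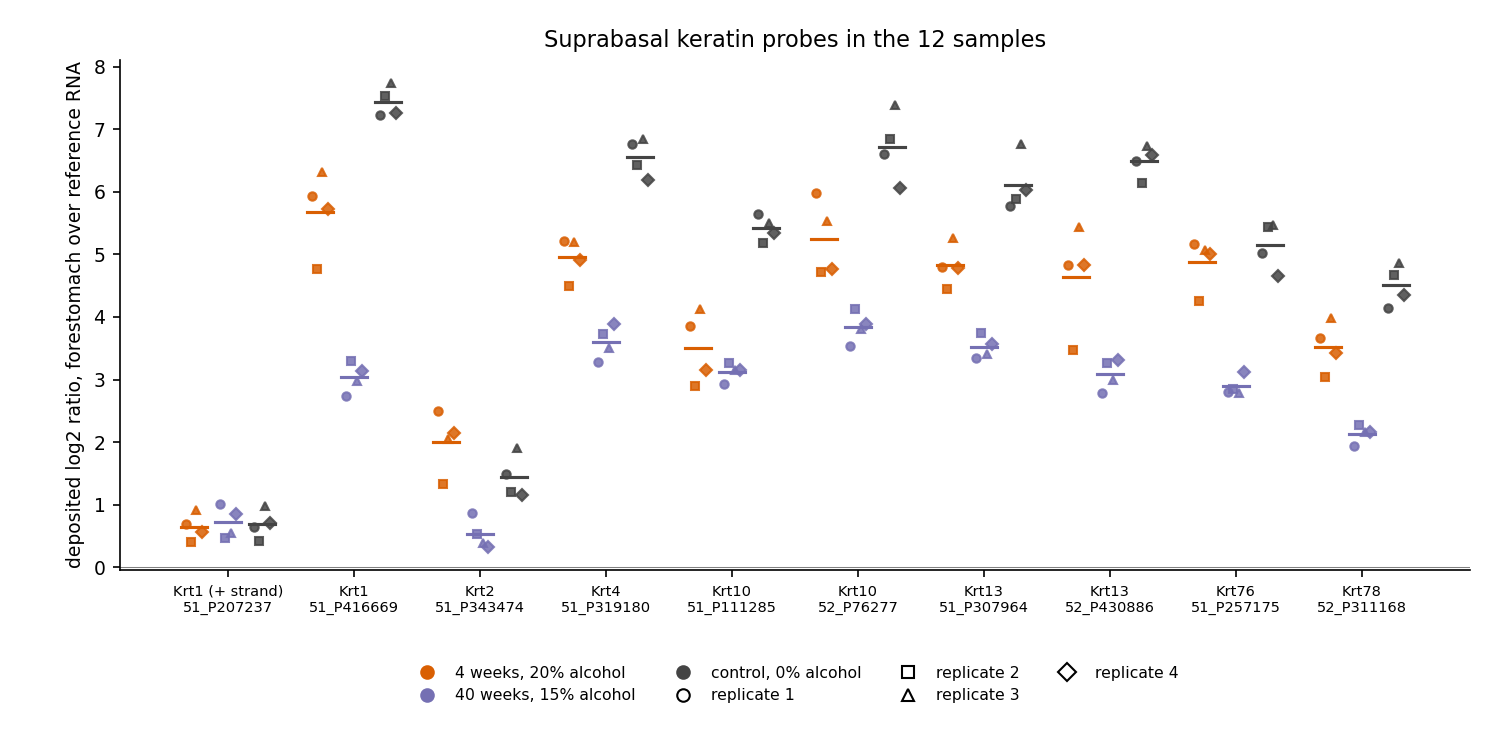
Deposited log2 ratio of forestomach over reference RNA for the 10 kept keratin probes in the 12 samples, a symbol per replicate and a bar at each group mean. Krt1 is fully separated, with 4.76 to 6.31 at 4 weeks, 2.74 to 3.29 at 40 weeks and 7.23 to 7.74 in controls, while Krt76 overlaps between 4 weeks and control.

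Other probes with high control ratios were lower at 40 weeks too. Of the 289 kept probes with a control ratio of 6 or more, 98.3% were called lower at 40 weeks with a median of -2.72, and of the 823 with a control ratio of 4 to 6, 93.3% with a median of -1.90. When every column was scaled to the same spread, 5 of 10 keratin probes were still called lower, with Krt1 at -2.44 (adjusted p = 1.35e-04), Krt13 at -1.53, Krt78 at -1.08 and Krt4 at -0.91. Krt10 at -0.55 (adjusted p = 0.107), Krt76 at -0.64 (adjusted p = 0.0503) and Krt2 at -0.55 (adjusted p = 0.0721) then lost their calls. The shares of 98.3% and 93.3% come from the unscaled columns, and no share of all kept probes under this scaling is given here. Over all alternatives the weakest changes were -2.26 for Krt1, -1.30 for Krt13, -0.67 for Krt4 and -0.37 for Krt10. How the 40-week columns were made was not checked against scanner files. No control group matched to the 40-week mice was analysed here, so alcohol and what else set them apart from the controls cannot be told apart. The control titles give no number of weeks, so a match in time to the 4-week mice is not shown either.

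Against 4 weeks of 20% alcohol, the 40-week ratios were lower for all 7 keratins and 8 of 10 probes were called lower, 0 higher, where 24.7% of kept probes were called lower, 18.3% higher and 43% in either direction. The same number did not overlap, against 26.7% of kept probes lower and 46.8% in either direction. Krt1 fell by 2.65 ± 0.28 (limma adjusted p = 4.94e-05), Krt76 by 1.98 ± 0.23 (adjusted p = 8.43e-05), Krt13 by 1.55 ± 0.33 (adjusted p = 0.00305), Krt2 by 1.48 ± 0.24 (adjusted p = 0.000683), Krt78 by 1.39 ± 0.21 (adjusted p = 0.000404) and Krt4 by 1.35 ± 0.21 (adjusted p = 0.000423). The Krt10 probes differed, one at -0.38 ± 0.24 (adjusted p = 0.224) and the other at -1.41 ± 0.32 (adjusted p = 0.00405). After scaling to the same spread Krt1 at -0.85 and Krt2 at -1.04 were still lower, Krt4 and Krt13 turned to 0.53 and 0.13 without a call, and Krt10 turned to 1.15 with one (adjusted p = 0.00347). Krt76 at -0.35 (adjusted p = 0.252) and Krt78 at -0.19 (adjusted p = 0.501) lost their calls. The direction for Krt4, Krt10 and Krt13 between the alcohol groups therefore depends on how the columns are scaled. The Krt2 probe was dim, with Cy3 well above background on 1 of 4 4-week arrays. Its 4-week log2 ratios were 1.34 to 2.49 in the deposited values and 0.24 to 0.92 in the ratio from the scanner files. Its 40-week deposited ratios were 0.33 to 0.86, so its fall depends on how dim spots are treated.

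Partner chains can also be set against each other within a sample. Levels of different probes are not comparable, so only the movement of a difference between groups is read. The log2 ratio of Krt1 minus that of Krt10 (A_51_P111285) was 2.18 ± 0.29 at 4 weeks, -0.09 ± 0.10 at 40 weeks and 2.02 ± 0.34 in controls (mean ± SD, n = 4 each). With the other Krt10 probe it was 0.44 ± 0.51 at 4 weeks, -0.81 ± 0.04 at 40 weeks and 0.72 ± 0.35 in controls. With either probe every 40-week value lay below every 4-week and control value. Krt4 minus Krt13 (A_52_P430886) was 0.32 ± 0.54 at 4 weeks, 0.51 ± 0.04 at 40 weeks and 0.07 ± 0.32 in controls, and with the other Krt13 probe 0.13 ± 0.20 at 4 weeks, 0.09 ± 0.17 at 40 weeks and 0.45 ± 0.41 in controls. The probes thus placed the mucosal pair in different orders over the groups.
Krt76 minus Krt10 was 1.37 ± 0.37 at 4 weeks, -0.24 ± 0.19 at 40 weeks and -0.27 ± 0.46 in controls with A_51_P111285, where the 4-week values stood apart. With A_52_P76277 it was -0.38 ± 0.44 at 4 weeks, -0.95 ± 0.26 at 40 weeks and -1.58 ± 0.23 in controls, where the 4-week and 40-week values overlapped. Krt78 minus Krt13 was -1.11 ± 0.47 at 4 weeks, -0.96 ± 0.15 at 40 weeks and -1.98 ± 0.40 in controls with A_52_P430886, and -1.30 ± 0.12, -1.38 ± 0.09 and -1.61 ± 0.29 in that order with A_51_P307964, where all groups overlapped.

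Among the other listed genes in the deposited values, 9 of 16 further keratins fell at 40 weeks against control and 0 rose (median -0.90). The largest falls were of Krt23 at -3.46 ± 0.24, Krt79 at -2.55 ± 0.17 and the stress keratin Krt6a at -2.03 ± 0.73. The basal chains Krt5 and Krt14 fell by 0.82 ± 0.15 (adjusted p = 0.0012) and 1.89 ± 0.23 (adjusted p = 7.28e-05). Of the 20 filament partners 18 fell (median -1.92), with hornerin (Hrnr) at -3.66, loricrin at -3.50 and involucrin (Ivl) at -3.42. Of the 19 regulators 11 fell (median -0.66), with the transcription factors Ehf at -2.81, Ovol1 at -2.70 and Tfap2c at -2.62. All of these shares stand against the 24.2% of kept probes called lower.
At 40 against 4 weeks 8 further keratins fell and 0 rose (median -0.75), with Krt79 at -1.93, Krt80 at -1.84 and Krt23 at -1.70, and Krt14 at -0.75 (adjusted p = 0.0203) while Krt5 had 0.15 ± 0.15 (adjusted p = 0.434). Of the filament partners 14 fell (median -1.001), with involucrin at -2.40, and of the regulators 9 fell and 1 rose (median -0.57). Of all kept probes 24.7% were called lower and 18.3% higher in this comparison.
At 4 weeks in the deposited values 3 further keratins, 11 partners and 1 regulator (Ovol1 at -0.98, adjusted p = 0.0261) fell and none rose. The medians were -0.27, -0.87 and -0.37 in that order. Of all kept probes 3.04% were called lower there, and the 1 regulator of 19 is near that share. The keratins among these were Krt23 at -1.77, Krt14 at -1.13 and Krt5 at -0.97.

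Smooth muscle markers moved in the same direction. All 6 smooth muscle markers were called lower at 40 weeks against control (median -2.08) and 3 of 6 in the ratio at 4 weeks (median -0.98), as were 9 of 9 suprabasal squamous markers at 40 weeks (median -2.54). In Cy5 after normalization 0 of 6 smooth muscle markers were called (1 at an unadjusted p under 0.05; median -0.17) and in Cy3 6 of 6 rose (median 0.80). The suprabasal markers had a median of 0.11 in Cy5 with 0 of 9 called (2 at an unadjusted p under 0.05), and 9 of 9 rose in Cy3. Before normalization, where the median of all probes was lower at 4 weeks too, summed Cy5 of the smooth muscle markers was 586197 to 1187130 on 4-week arrays and 1402640 to 1884860 on control arrays. That of the suprabasal markers was 831499 to 1446020 on 4-week arrays and 1501320 to 2379540 on control arrays. Adipocyte markers summed to 42213 to 262604 on 4-week arrays and 62132 to 374304 on control arrays. All 5 adipocyte markers had lower ratios at 4 weeks, with 1 called (median -1.42), and at 40 weeks, with 2 called (median -3.28). All 9 pancreas markers were lower too, with 0 called at 4 weeks (median -1.55; 0 at an unadjusted p under 0.05) and 2 at 40 weeks (median -2.53). Their control mean includes control replicate 3, where their median deposited log2 ratio was 6.20, against 0.26 to 1.99 on the other control arrays. Leukocyte markers had medians of 0.09 in the ratio at 4 weeks and 0.08 at 40 weeks, with 2 of the 4 higher and 2 lower each time. At 4 weeks their changes ran from -0.47 to 0.40, with 0 called (3 at an unadjusted p under 0.05). At 40 weeks they ran from -0.32 to 0.63, with 1 called, Cd68, which was higher, as were 18.1% of kept probes. The part of a changed mix of tissues in the keratin values was not tested.

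The genes whose course over the 12 samples was most like that of a keratin were found by the root-mean-square difference of their deviations from the control mean in the deposited values, over 16834 genes. Krt1 was followed most closely by Calm4, a calcium-binding protein of skin, at 0.14, by Crct1, a cornified envelope gene, at 0.21, and by the protease inhibitor Serpinb12 at 0.25. The nearest other member, Krt13, stood at 0.62, with 23 genes outside the members nearer. Among the genes nearest to Krt4 were the protease Klk5 at 0.12 and the alarmin S100a9 at 0.17, and Krt13 lay nearest to Asprv1, a skin protease, at 0.17, to Dmkn at 0.20 and to the transcription factor Pitx1 at 0.21. Among the members, Krt4 and Krt13 were each nearest to the other, at 0.43. Keratins outside the members were not considered for this. Of the genes outside the members, 108 lay nearer to Krt4 than Krt13 did, and 30 lay nearer to Krt13 than Krt4 did.
Krt10 lay nearest to Krtdap, Lce1c and Lce1i at 0.28 each, genes of cornifying keratinocytes. Krt78 lay nearest to Sdcbp2 at 0.11, to the protease inhibitor Cst6 at 0.12 and to Hopx at 0.14. The course of Krt76 was nearest to Hand2 and Dst, at 0.18 and 0.19, and to Col14a1, a collagen of connective tissue, at 0.19. The other member nearest to Krt76 was Krt78 at 0.46, with 274 genes outside the members nearer. The dim Krt2 probe lay nearest to B930025P03Rik at 0.25, Smyd1 at 0.26 and Mepe at 0.26. The Krt2 probe had no close member, with Krt76 nearest at 0.95 and 12332 genes outside the members nearer than that. All values of a sample share its library and its normalization, so likeness of course is a description.

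In the deposited values all probes of Krt10 and Krt13, the type I chains, were called lower than control in both alcohol groups. So were the probes of Krt4 and Krt78 and the minus-strand probe of Krt1. The 250 bases before the starts of Krt10 and Krt13 are shown, from RefSeq on build GRCm38.p6, minus strand, 5′ to 3′. The Krt10 stretch is at chr11:99389365-99389614 with a TATAAA box in capitals, and the Krt13 stretch at chr11:100121567-100121816 with a TGANTCA match, TGAATCA, in capitals.
Krt10 promoter: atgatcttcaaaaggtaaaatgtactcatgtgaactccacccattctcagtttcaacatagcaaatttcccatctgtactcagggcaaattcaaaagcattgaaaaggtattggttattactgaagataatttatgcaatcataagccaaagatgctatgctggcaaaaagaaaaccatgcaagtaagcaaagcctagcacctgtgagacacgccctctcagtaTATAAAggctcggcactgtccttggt
Krt13 promoter: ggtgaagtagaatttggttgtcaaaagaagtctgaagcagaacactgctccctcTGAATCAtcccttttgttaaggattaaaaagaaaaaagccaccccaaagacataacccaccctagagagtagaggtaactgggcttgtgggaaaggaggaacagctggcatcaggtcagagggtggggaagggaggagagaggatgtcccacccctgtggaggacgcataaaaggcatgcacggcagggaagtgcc
Promoters were listed for 5 of the 7 keratins, the others being Krt1 and Krt4. In the 250 bases before to 50 after the start, on both strands, TATAAA was found in 2 of the 5 (Krt10 and Krt76) and in 14.2% of 27025 promoters. TGANTCA was found in 1 of the 5 and in 7.9% of all. CACCC, the core of sites bound by Krüppel-like factors, was found in 4 of the 5 and in 56.7% of all, and TTNNGNAA, a loose form of the C/EBP site, in 2 of the 5 and in 40.7% of all. A match is a description of letters and not a site in use.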

How the data were processed

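Spot intensity values were made by Agilent Feature Extraction (version 10.7.3.1 per the file headers, 9.1 per the submitters' processing notes) from scans of 8 arrays with 45018 spots each. The deposited log2 ratios of 12 samples were made by the authors in a way that no source used here states. On the 8 arrays they equalled log2 of background-subtracted Cy5 over Cy3 less a smooth trend with intensity, within 0.05, for 99.467 to 99.802% of probes with both signals above local background, and the other probes were at 0. The 40-week columns could not be checked in this way.

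From the mean signals, normexp background correction (offset 50) and loess within arrays gave the ratio, and quantile normalization of each channel gave Cy5 and Cy3 alone. Control spots (1639) were left out, and spots of a probe were averaged. Of the probes, 26918 were named by accession, 5082 by symbol, 817 by synonym and 8357 not at all. limma 3.58.1 (R 4.3.3) was fitted over 30450 probes with Benjamini-Hochberg adjustment, and a call is an adjusted p under 0.05. For a gene with several probes, each is given by itself. The fits were tested on simulated data. Sequences came from the scanner files and RefSeq. Depth has no meaning for arrays, where 4 per group limits the precision.

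The members, the gene lists and the tests were chosen with earlier results of these data known. Named outside the members are the 3 largest called changes of each list and Krt5 and Krt14, and the 3 genes most like each keratin in course, of which 1 is not reported here. Replicate numbers in the titles were not used to pair samples in the main fits. In the ratio, 4-week and control arrays of the same number correlated at 0.32, -0.46, 0.16 and -0.24 in their deviations. In the deposited values they correlated at 0.42, -0.41, 0.20 and -0.18. These values cannot show whether samples were paired. Alternatives covered background correction, normalization, filters, weights, a replicate block and leaving out arrays.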

Additional observations from a re-analysis of the deposited data

Results flagged for a closer look

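In 4 of 90 groups of 4 values, the farthest array stood apart from the other 3 by more than Dixon's 95% critical value for groups of that size. Chance alone flags about 1 group in 20. Control replicate 3, the array with pancreas transcripts, gave 3 of them. Krt4 there had a log2 Cy5 of 15.8132, against 15.00 to 15.07 on the other control arrays. The second Krt10 probe (A_52_P76277) had 17.9263 in log2 Cy5, against 17.36 to 17.43. The first Krt10 probe (A_51_P111285) was low in Cy3 there, at 13.1686, against 13.62 to 13.67. The remaining value was that of Krt76 in Cy3 on 4-week replicate 3, at 9.06965, against 7.87 to 7.95 on the other 4-week arrays.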

How the results depend on the processing

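Of the keratin counts under alternatives, 86 were within 1.5 times of the reported count and 19 were not. In the ratio at 4 weeks (3 called), 5 fell without background correction, 1 with a normexp offset of 10, and 0 with median centring or scaling to 1 spread. The scanner software's processed signals gave 5, 4 lower and 1 higher (Krt2 at 1.40). The replicate block gave 0, and so did leaving out any 1 array (0 to 0). The block changed no other count. All probes called numbered 230, against 610, 27, 0, 0, 652, 0 and 0 to 22 in the same order. Krt76, at -0.11, changed sign with scaling (0.37) and with 1 array left out (-0.323 to 0.0904), and Krt2, at 0.06, likewise (-0.0754 to 0.162). In Cy5, Krt1 at 0.03 changed sign with median scaling (-0.0611), processed signals (-0.0993), when the 3 arrays holding other organs' transcripts were dropped (-0.0034) and with 1 array left out (-0.0373 to 0.0852), Krt10 with processed signals (0.0117), and Krt2 with 1 array left out (-0.0267 to 0.202). In the deposited values at 4 weeks (7), quantile normalization left 1, with Krt76 at 0.28, and the fit of the 2 groups alone left 0. That fit has fewer samples and also takes no spread from the 40-week columns, and which of these mattered was not tested. At 40 weeks against control (9), scaling to 1 spread left 5. Against 4 weeks (8), it left 4, 2 lower and 2 higher, with Krt4 at 0.53, Krt10 at 1.15 and Krt13 at 0.13, and quantile normalization left 5, with Krt4 at 0.11 and Krt10 at 0.90 (adjusted p = 0.0129 by limma). The cause of these differences between settings was not tested. The limits common to these values are the single slide of each group with scanner files, the unchecked making of the 40-week columns, and quantile normalization, which holds the brightest probes near the top rank.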
